A study of Homo sapiens with 9 samples.

Results

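Mitochondrial ribosomal proteins were read in the human mammary epithelial line MCF10A and in lines derived from it under BMP2 and IL6. The members were the genes whose symbol is MRPL or MRPS followed by a number and, in some cases, the letter A, B or C. Such symbols were carried by 78 of the 60199 rows of the count table, and all 78 were among the 15717 genes tested. By symbol, 49 were of the large subunit (MRPL) and 29 of the small subunit (MRPS). The rule set 7 members on chromosome 17 (MRPL10, MRPL12, MRPL27, MRPL38, MRPL45, MRPS7 and MRPS23) against the rest. The annotation places an 8th member there, MRPL58, and its values are given with theirs.

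Poly-A RNA was sequenced from 9 cultures, 3 of each line. CT was MCF10A grown without added BMP2 and IL6, and was not transformed. MC26 was derived from unsorted MCF10A cells kept for a long time with BMP2 and IL6. M1B26 was derived from MCF10A cells first sorted on the surface receptor BMPR1B and kept with BMP2 and IL6. From these sorted cells 3 soft-agar clones were selected and expanded with the same factors to give the line. All libraries thus share the MCF10A background, which the paper describes as CDKN2A deleted and MYC amplified. CDKN2A had 0 counts in every library. The concentrations of BMP2 and IL6 differ between the labels and the methods and are not given here. The labels do not say whether the cultures of a line were grown from separate stocks, so the p-values measure the spread between these cultures, which may be technical.

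Total counts ranged from 21425118 (CT replicate 2) to 80076597 (CT replicate 3), and the members had between 422 and 14134 counts in a library. The epithelial markers KRT5 and KRT14 stood at 4631 to 7297 and 42.2 to 1521 CPM (counts scaled to a common library size), and the leukocyte marker PTPRC and the hepatocyte marker ALB had at most 2 and 3 counts in a library. The luminal keratins KRT8 and KRT18 stood at 192 to 392 and 420.3 to 558 CPM, and KRT19 at no more than 0.284. Of the fibroblast and endothelial markers COL1A1 reached 17.5 CPM, PDGFRB 0.847 and PECAM1 5.32. No batch is given in the labels, so line and batch cannot be told apart. These are bulk cultures, in which fewer cells of a type and less RNA per cell cannot be told apart.

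The mitochondrial ribosome translates the few proteins encoded in mitochondrial DNA, all of them subunits of the respiratory chain and ATP synthase. Its RNAs come from mitochondrial DNA, whereas its proteins come from nuclear genes and are imported. The large subunit forms peptide bonds and the small subunit decodes the messenger RNA. Many of the proteins have a bacterial counterpart and others arose in mitochondria.

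To show the sequence at the start of the genes that rose most, the 280 bases from 250 before to 30 after the start site are printed for the 4 members with the largest increase in M1B26, all on chromosome 17, and for MRPL45, the chromosome 17 member with the smallest. They are from RefSeq on GRCh38.p14, 5′ to 3′ on the strand of the gene, with motif matches in capitals.
MRPL58 (chr17:75012420-75012699, plus strand): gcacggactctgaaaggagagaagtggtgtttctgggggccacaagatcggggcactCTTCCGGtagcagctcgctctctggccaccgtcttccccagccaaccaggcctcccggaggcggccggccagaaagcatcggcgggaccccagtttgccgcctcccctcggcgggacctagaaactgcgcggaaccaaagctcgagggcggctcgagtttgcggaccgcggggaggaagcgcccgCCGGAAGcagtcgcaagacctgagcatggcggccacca
MRPS23 (chr17:57850015-57850294, minus strand): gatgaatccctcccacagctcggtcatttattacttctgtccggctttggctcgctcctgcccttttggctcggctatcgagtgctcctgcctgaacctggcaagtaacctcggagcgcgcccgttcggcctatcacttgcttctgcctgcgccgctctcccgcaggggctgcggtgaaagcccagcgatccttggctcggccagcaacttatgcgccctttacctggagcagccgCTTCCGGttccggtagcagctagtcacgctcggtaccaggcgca
MRPL38 (chr17:75904855-75905134, minus strand): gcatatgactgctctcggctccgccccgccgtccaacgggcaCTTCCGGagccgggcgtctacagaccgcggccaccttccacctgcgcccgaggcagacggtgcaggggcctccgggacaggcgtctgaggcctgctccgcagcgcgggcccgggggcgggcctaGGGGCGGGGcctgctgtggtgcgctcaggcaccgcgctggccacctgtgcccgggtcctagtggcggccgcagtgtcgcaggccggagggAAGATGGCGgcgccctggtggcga
MRPL12 (chr17:81703117-81703396, plus strand): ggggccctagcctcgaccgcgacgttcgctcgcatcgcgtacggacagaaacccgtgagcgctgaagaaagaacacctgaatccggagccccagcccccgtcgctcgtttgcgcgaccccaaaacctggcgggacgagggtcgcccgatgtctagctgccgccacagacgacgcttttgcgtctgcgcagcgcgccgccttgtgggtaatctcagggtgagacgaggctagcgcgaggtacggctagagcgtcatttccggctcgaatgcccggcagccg
MRPL45 (chr17:38296918-38297197, plus strand): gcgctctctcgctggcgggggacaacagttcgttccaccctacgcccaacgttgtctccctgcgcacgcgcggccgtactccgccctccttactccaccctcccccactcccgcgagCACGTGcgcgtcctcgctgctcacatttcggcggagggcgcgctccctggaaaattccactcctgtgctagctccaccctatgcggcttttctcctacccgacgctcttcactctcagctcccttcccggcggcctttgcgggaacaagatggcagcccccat

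Sites are counted from the start site as 0, and matches on the other strand are shown as the reverse complement. The motifs searched on both strands were CCGGAAG (ETS family, which includes GABPA), AAGATGGCG (YY1), GCATGCGC (NRF1), GGGGCGGGG (SP1) and CACGTG (E-box, bound by MYC). The end of the ETS letters can overlap the start of the YY1 letters. MRPL58 held the ETS letters 193 and 8 bases before its start site, MRPS23 14 bases before it and MRPL38 208 bases before it, and MRPL38 also held the YY1 letters 6 bases after its start and the SP1 letters 84 before it. MRPL45 held an E-box 133 bases before its start, and no letters matched in MRPL12. In MRPL45, MRPL38 and MRPS23 the start site of the promoter lies inside the gene as the annotation places it. Bases counted as before the start can there lie within the gene. The table of promoters, which runs to 50 bases after the start, held 69 of the 78 members, and 11 of these had more than one promoter, counted as holding a motif if any of them did. Of the 69, 30 (43.5%) held the ETS letters, as did 12.2% of all 27305 genes with a promoter and 21.7% of the tested genes. The YY1 letters were in 13 members (18.8%), against 2.14% of all genes and 4.5% of tested genes, and the NRF1 letters in 6 (8.7%), against 3.68% and 6.23%. The SP1 letters were in 18 members (26.1%, tested genes 32.2%) and the E-box in 9 (13.0%, tested genes 12.5%). Of the cytosolic ribosomal proteins 36.4% held the ETS letters and of the nuclear OXPHOS subunits 32.8%. Among members the ETS share was 42.9% in the large and 44.4% in the small subunit. Median log2 fold changes in M1B26 against CT were 0.45 for the 30 members with the ETS letters, of which 4 are on chromosome 17, and 0.38 for the 39 without them. With and without the letters the medians were 0.53 and 0.39 for NRF1, 0.50 and 0.39 for YY1 and 0.46 and 0.38 for the E-box. For SP1 they were 0.39 and 0.44. A match is a description of letters and not of a bound factor.

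Levels differed widely between members. Per kilobase of the canonical transcript the mean over the 9 libraries was highest for MRPL12, MRPS24 and MRPL24, at 168, 145 and 132 CPM per kilobase, and lowest for MRPL42, MRPS33 and MRPL50, at 4.55, 9.14 and 10.04. MRPL12 is a protein of the stalk that recruits translation factors. The value of MRPL42 rests on a canonical transcript of 15557 bases, and 90.9% of the exonic bases of MRPS24 are shared with the readthrough gene URGCP-MRPS24. The median over members was 42.2 CPM per kilobase in CT, 45.8 in MC26 and 63.05 in M1B26. Between cultures of a line the members varied little, with a median coefficient of variation of 6.67% in CT, 4.55% in MC26 and 5.06% in M1B26.

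The summed level of the members was 4919, 4663 and 5039 CPM in CT replicates 1 to 3, 5217, 4997 and 5230 in MC26, and 6735, 6744 and 6325 in M1B26. The M1B26 libraries lay above all others, whereas the lowest MC26 library lay within the range of CT. As a share of all counts, with no scaling between libraries, the members made up 0.507% ± 0.00880 of the CT libraries (SD, n = 3), 0.507% ± 0.0117 of MC26 and 0.643% ± 0.0180 of M1B26.

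**Figure D1:**
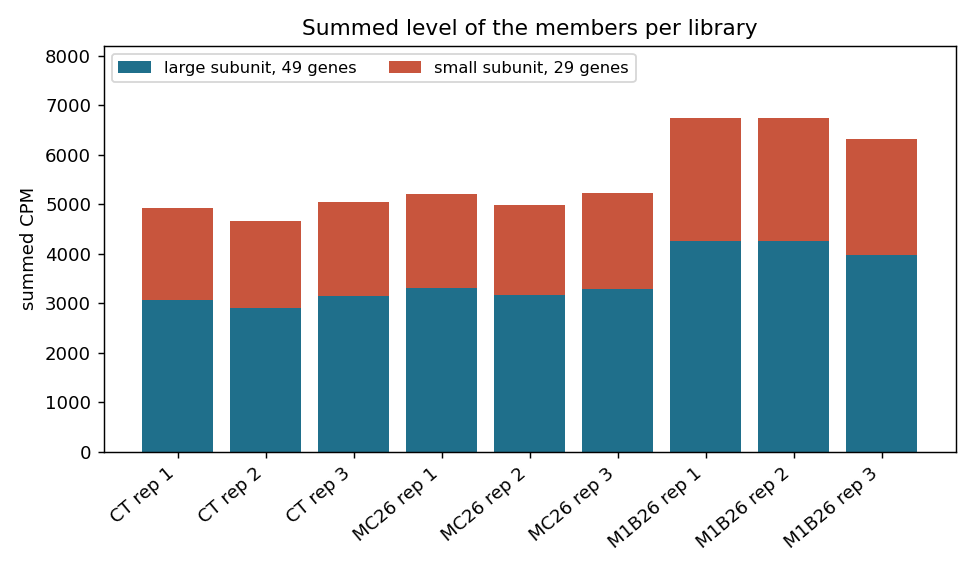
Summed CPM of the 49 large subunit and 29 small subunit members (stacked bars) in each of the 9 libraries. The M1B26 libraries reach 6325 to 6744 CPM and the others 4663 to 5230.

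The comparison of M1B26 with CT asked how the members differed between cloned, transformed cells and the parental line. The members were higher in M1B26 as a group. By edgeR's quasi-likelihood test 60 of 78 rose, 1 fell (MRPS5) and 17 were not past the threshold of an adjusted p of 0.05, with a median log2 fold change of 0.39 and 73 positive values. Over all 15717 genes 25.2% were called higher and 23.7% lower, with a median of 0.00. In 63 members every M1B26 library lay above every CT library, a pattern of 30.0% of all genes. The largest increases were those of MRPL58, MRPS23, MRPL38 and MRPL12, all on chromosome 17. Of the 17 members not past the threshold 4 had negative values, MRPS9, MRPL15, MRPS25 and MRPL33, between -0.16 and -0.07.

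**Figure D2:**
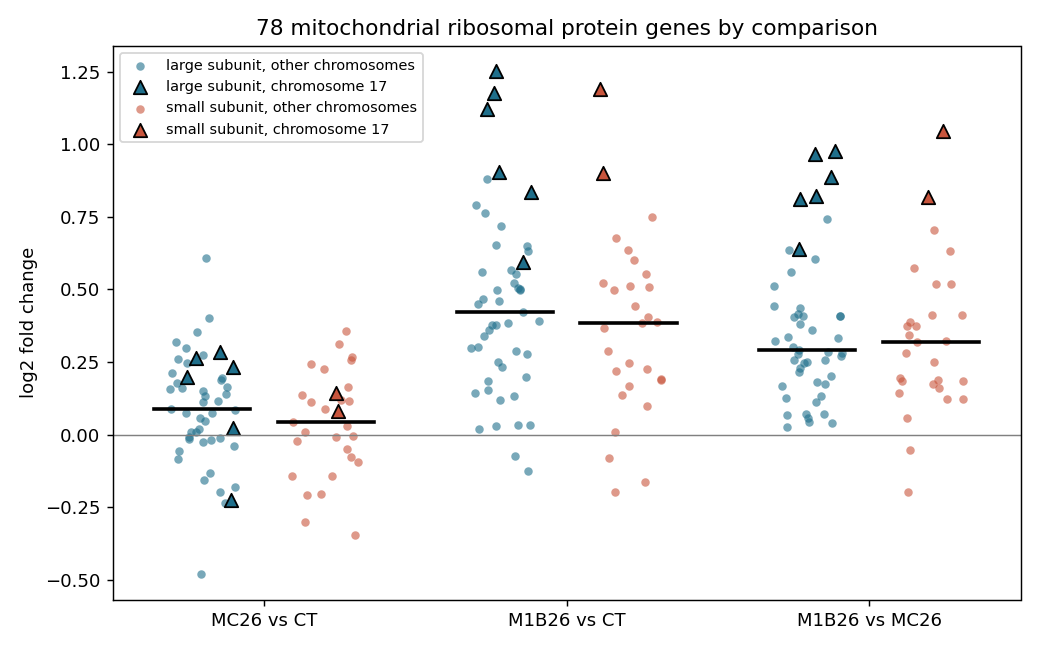
Log2 fold change of each member (points) in the 3 comparisons, large subunit in blue and small subunit in red, with triangles for the 8 members on chromosome 17 and lines at the medians. In M1B26 against CT the medians are 0.42 and 0.39, and the triangles lie between 0.60 and 1.25.

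The size of the increase varied with transcript length and GC content. The members are short, with a median canonical transcript of 1242 bases against 3175 over all tested genes. In M1B26 short genes were higher and long genes lower in general: among 10 bins of genes by length, the bin with the shortest transcripts had a median of 0.28 on the log2 scale and the bin with the longest -0.28. The deviation of a library's log2 CPM from the mean correlated across 13830 genes with log2 length (r) at 0.095 to 0.241 in the CT libraries, 0.028 to 0.103 in MC26 and -0.324 to -0.143 in M1B26. With GC content it correlated at 0.069, -0.323 and 0.199 in CT replicates 1 to 3, so the CT libraries were split. It lay at -0.103 to 0.074 in MC26 and -0.006 to 0.097 in M1B26. The log2 fold change itself correlated, across genes that are no independent replicates, with log2 length at -0.144 over all genes and -0.241 over the 78 members, and with GC content at 0.002 and 0.473. With offsets for length and GC content in the fit, 46 members rose and 9 fell in M1B26 against CT (all genes 25.7% and 27.0%) and the median was 0.17. Whether the relation to length arose in the cells or in the preparation of the libraries was not tested.

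**Figure D3:**
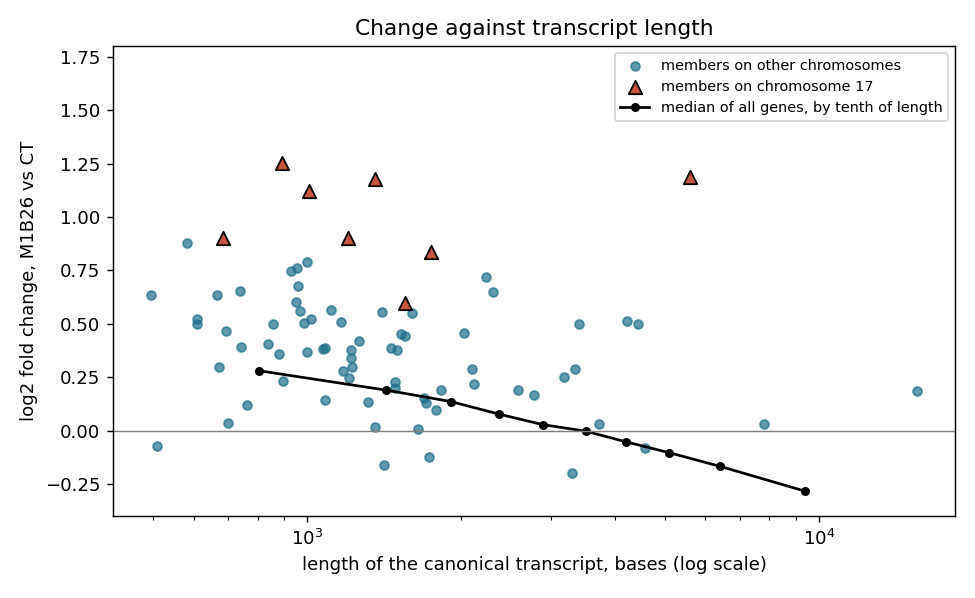
Log2 fold change of each member in M1B26 against CT by the length of its canonical transcript in bases (log scale), with the median of all genes in 10 bins of length as a black line. Members on chromosome 17 (triangles) lie at 0.60 to 1.25, above the line, which falls from 0.28 to -0.28.

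The members on chromosome 17 rose more than the rest. All 7 of the rule were called higher, with a median of 0.90, against 53 of the other 71 with a median of 0.38. The difference of 0.53 between these medians compares with a spread between libraries of 0.07 (SD), and other genes of chromosome 17 were also shifted: 64.1% of the 835 that are no members were called higher, with a median of 0.47. With MRPL58 the median of the chromosome 17 members was 1.01. All 8 stood among the 19 highest of 78 members, and 11 of the other 70 lay above the lowest of the 8. Offsets for length and GC content left all 7 called higher, with a median of 0.67, against 0.16 for the other members and 0.44 for the other genes of the chromosome. MRPS23 was then at 1.29, MRPL38 at 1.002, MRPL58 at 0.99, MRPL12 at 0.91, MRPL10 at 0.67, MRPS7 at 0.67, MRPL27 at 0.62 and MRPL45 at 0.38. The mean log2 CPM of the 7 minus that of the other members, taken within each library, was 0.35 to 0.45 in CT, 0.42 to 0.46 in MC26 and 0.98 to 1.03 in M1B26.

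MRPL58, a peptidyl-tRNA hydrolase that became part of the large subunit and can release stalled chains (chromosome 17, 75012670 to 75021261), had 35.3, 31.1 and 36.7 CPM in CT, 45.6, 42.1 and 38.2 in MC26 and 85.8, 84.5 and 76.05 in M1B26. The groups followed each other without overlap, and M1B26 stood well apart. Its log2 fold change against CT was 1.25 (SE 0.09, edgeR adjusted p 1.77e-06). MRPS23, a small subunit protein specific to mitochondria (57834781 to 57850056), had 61.0, 61.8 and 61.4 CPM in CT, 71.3, 64.7 and 67.5 in MC26 and 145, 144 and 129.9 in M1B26. The CT libraries were nearly equal, MC26 lay just above them and M1B26 far above. The log2 fold change was 1.19 (SE 0.07, edgeR adjusted p 4.15e-07). MRPL38, also specific to mitochondria (75898644 to 75905093), had 81.05, 66.35 and 91.8 CPM in CT, 97.0, 86.45 and 91.95 in MC26 and 185, 178 and 179 in M1B26. Here CT and MC26 overlapped, and M1B26 was 1.18 higher than CT on the log2 scale (SE 0.10, edgeR adjusted p 6.82e-06). An unnamed coding gene on the same strand shares 94.3% of the exonic bases of MRPL38, so their reads may be split.

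MRPL12 (81703367 to 81707517) had 115, 94.9 and 139.7 CPM in CT, 136, 132 and 145 in MC26 and 269, 263 and 230.0 in M1B26. The CT libraries were spread and overlapped MC26, and M1B26 lay above both. The log2 fold change was 1.12 (SE 0.12, edgeR adjusted p 3.19e-05), and 69.5% of the exonic bases are shared with another gene on the same strand. MRPL10 (47823272 to 47831541), the stalk protein to which MRPL12 binds, had 52.1, 46.0 and 51.2 CPM in CT, 50.7, 49.55 and 51.9 in MC26 and 89.4, 87.05 and 90.6 in M1B26. The ranges of CT and MC26 overlapped, and M1B26 was higher than CT by 0.84 on the log2 scale (SE 0.06, edgeR adjusted p 2.99e-06). MRPL27 (50367857 to 50373207), whose bacterial counterpart reaches into the peptidyl transferase centre, had 60.4, 52.0 and 58.0 CPM in CT, 74.1, 64.6 and 66.4 in MC26 and 111, 109 and 100.2 in M1B26. It was above CT in every library of both lines, by 0.90 in M1B26 (SE 0.08, edgeR adjusted p 7.6e-06).

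MRPS7 (75261674 to 75266376), a protein of the head of the small subunit with a bacterial counterpart, had 92.2, 87.7 and 96.8 CPM in CT, 100.1, 93.5 and 99.4 in MC26 and 176, 176 and 164.5 in M1B26. Only the M1B26 libraries stood apart, at 0.90 (SE 0.06, edgeR adjusted p 1.95e-06). MRPL45 (38297023 to 38323217), a protein near the exit of the peptide tunnel, had 65.4, 68.1 and 62.1 CPM in CT, 53.3, 53.5 and 60.3 in MC26 and 91.5, 98.5 and 105 in M1B26. It was the one chromosome 17 member below CT in every MC26 library. In M1B26 it rose by 0.60 (SE 0.08, edgeR adjusted p 0.000101), the smallest increase of the 8.

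**Figure D4:**
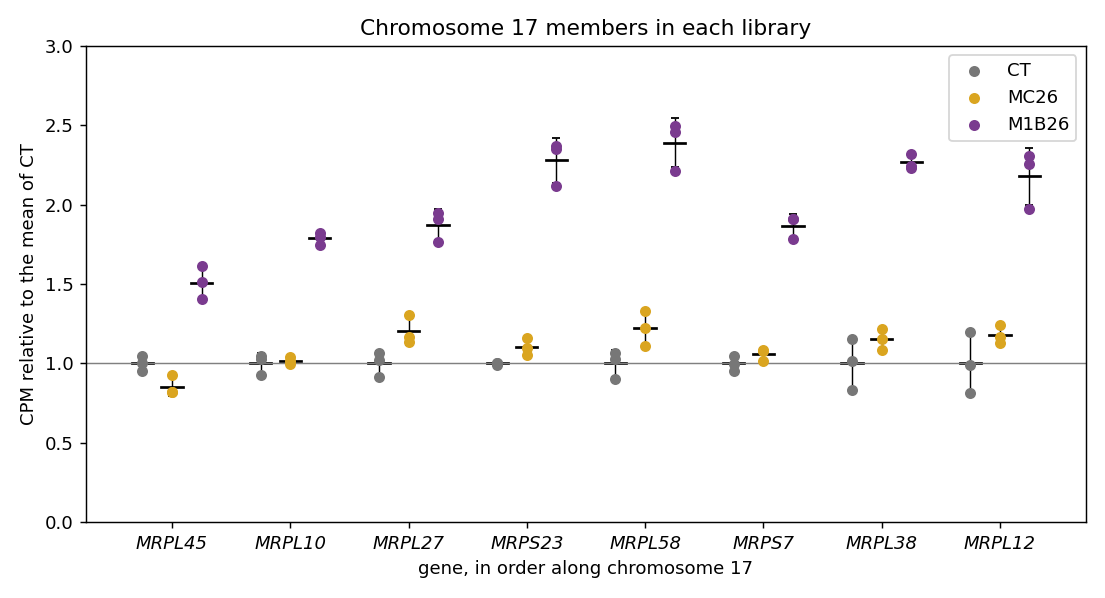
CPM of the 8 chromosome 17 members in each library relative to the mean of CT, in order along the chromosome, with the mean (line) and SD (bar) of 3 libraries. The M1B26 libraries of each gene lie above all CT and MC26 libraries, with MRPL45 the closest to CT.

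The genes around these members were read for the same shift. Within 1 Mb of each of the 8 lay 17 to 55 tested genes, whose median log2 fold change in M1B26 against CT was lowest around MRPL45 at 0.28 and highest around MRPL12 at 0.66. Around MRPL10 and MRPL27 it was 0.63 and 0.61, around MRPL38, MRPL58 and MRPS7 0.57, 0.51 and 0.48, and around MRPS23 0.44. MRPS23 lay above all 17 of its neighbours and MRPL58 above 40 of 41. MRPL10, MRPL45 and MRPL27 were nearer to theirs, above 17 of 26, 15 of 22 and 22 of 31. Neighbours were read in the fit without offsets for length and GC content. The part of transcript length in these differences was not tested. Other chromosome 17 genes had a median of 0.42 before MRPL45 and of 0.50 from MRPL45 to the end, so the shift was not limited to the stretch that holds the members.

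Among the members on other chromosomes the highest value was that of MRPL41 at 0.88, a gene named after its value was seen. It had 43.2, 27.9 and 54.35 CPM in CT and 79.2, 81.1 and 72.95 in M1B26. Every M1B26 library was above CT, but CT was the more spread (SE 0.17, edgeR adjusted p 0.00171). Next came MRPL43 at 0.79, MRPL14 at 0.76, MRPS6 at 0.75, MRPL57 at 0.72, MRPS12 at 0.68, MRPL55 at 0.65, MRPL17 at 0.65 and MRPS24 at 0.64, of which MRPL43, MRPS6, MRPL57 and MRPL55 were also named after their values were seen. The smallest increases past the threshold were those of MRPS35 at 0.19, MRPS16 at 0.19 and MRPL37 at 0.20, with adjusted p of 0.0398, 0.0222 and 0.0427 by edgeR. MRPS35 lost the threshold without 6 of the 9 libraries in turn and in 4 other settings, MRPL37 without 7 and in 6 others, and MRPS16 without 3 and in 4 others, and with the offsets MRPS35 was at -0.01. MRPS5, a small subunit protein with a bacterial counterpart, had 81.3, 79.98 and 80.6 CPM in CT, 74.2, 73.2 and 71.5 in MC26 and 66.8, 72.4 and 71.55 in M1B26. The libraries of M1B26 and MC26 overlapped below CT. Its log2 fold change in M1B26 against CT was -0.20 (SE 0.06, edgeR adjusted p 0.0151). That call was lost without 2 of the libraries in turn and in 1 other setting, and 97.1% of its exonic bases are shared with an unnamed coding gene on the same strand.

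The comparison of MC26 with CT asked the same of the line derived without sorting or cloning. Here the calls went both ways: 13 members rose, 6 fell and 59 were not past the threshold, with a median of 0.08 and a range of -0.48 to 0.61. Over all genes 18.8% were called higher and 19.9% lower, and the median was 0.00. Every MC26 library lay above every CT library in 26 members, a pattern of 24.6% of all genes. The split of the calls depended on the scaling, since with total counts 4 members rose and 10 fell (all genes 13.8% and 24.8%). With offsets for length and GC content 29 rose and 10 fell (all genes 30.0% and 20.0%). Leaving out single libraries moved the number of calls from 19 to 8 (without MC26 replicate 1), 10 (without CT replicate 1) and 11 (without MC26 replicate 2).

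MRPL17, a large subunit protein with a bacterial counterpart, rose most in MC26. It had 69.9, 61.2 and 71.1 CPM in CT, 113, 95.2 and 100.4 in MC26 and 111, 112 and 95.85 in M1B26. Both derived lines stood above CT and overlapped each other. The log2 fold change in MC26 was 0.61 (SE 0.09, edgeR adjusted p 0.000434). MRPL52, which is specific to mitochondria, followed with 0.40 (SE 0.08), from 51.1 ± 3.40 to 67.5 ± 4.71 CPM (SD, n = 3), then MRPS12 with 0.36 (SE 0.12) and MRPL14 with 0.35 (SE 0.09). MRPS12, the counterpart of the bacterial protein S12 of the decoding centre, had 73.7, 59.0 and 82.9 CPM in CT and 97.55, 82.6 and 96.6 in MC26. These groups overlapped, and its call was lost without 5 of the libraries in turn and in 2 other settings. Of the chromosome 17 members MRPL27 rose by 0.27, MRPL58 by 0.28 and MRPL45 was at -0.23 (adjusted p 0.0219, 0.0261 and 0.0372 by edgeR). The call of MRPL45 was lost without 5 libraries in turn and in 1 other setting, that of MRPL58 without 4 and in 1 other, and that of MRPL27 without 1 and in 1 other. The remaining 5 were not past the threshold, with MRPL10 at 0.02, MRPS7 at 0.08, MRPS23 at 0.14, MRPL38 at 0.20 and MRPL12 at 0.23. With total counts MRPL10 was at -0.05. With the offsets MRPL12 at 0.32, MRPL38 at 0.27 and MRPS23 at 0.23 were called higher (edgeR adjusted p 0.000848, 0.00323 and 0.0188).

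MRPL33, a large subunit protein with a bacterial counterpart, fell most in MC26, from 45.3, 51.5 and 44.7 CPM in CT to 36.0, 32.4 and 32.75, and stood at 44.5, 48.6 and 41.1 in M1B26. CT and M1B26 overlapped, and MC26 lay below both. Its log2 fold change was -0.48 (SE 0.09, edgeR adjusted p 0.00129). MRPS9, a protein of the small subunit head, fell by 0.35 (SE 0.07), from 56.0 ± 1.95 to 43.99 ± 3.02 CPM (SD, n = 3). MRPS14 fell by 0.30 (SE 0.07), from 28.6 ± 1.48 to 23.2 ± 0.475 CPM, and MRPL15 by 0.24 (SE 0.06), from 71.7 ± 2.58 to 60.8 ± 2.19 CPM. MRPL15 lost the threshold in 1 of the fits without a library, and the other 3 kept it in all settings.

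Between the derived lines, M1B26 was higher. Of the members 49 rose and 29 were not past the threshold in M1B26 against MC26, with a median of 0.30 and 76 positive values. Over all genes 21.2% were called higher and 18.4% lower. By edgeR 0 members were called lower, with 1 at an unadjusted p under 0.05, and by DESeq2 1 was. In 64 members every M1B26 library lay above every MC26 library, a pattern of 27.8% of all genes. With the offsets 27 rose and 6 fell (all genes 18.3% and 30.7%) and the median was 0.09. The 7 chromosome 17 members were all higher, with a median of 0.82, beside 0.28 for the other 71 and 0.47 for the other genes of the chromosome, of which 66.7% were called higher. All 8 with MRPL58 stood among the 10 highest members, from MRPS23 at 1.04 to MRPL27 at 0.64, which was at 0.35 with the offsets. MRPS23 was followed by MRPL38 at 0.98, MRPL58 at 0.97 and MRPL12 at 0.89, then MRPL45 and MRPS7 at 0.82 and MRPL10 at 0.81. Of the other members only MRPL57 and MRPS6 lay above MRPL27, and MRPL57 was the higher at 0.74. These 2 were named after their values were seen. The smallest increases past the threshold were MRPS16 at 0.18, MRPS35 at 0.19, MRPL49 at 0.25 and MRPL32 at 0.25. MRPS35 lost the threshold without 8 libraries in turn and in 6 other settings, MRPS16 without 5 and in 4 others, MRPL49 without 3 and in 2 others, and MRPL32 without 2, and with the offsets MRPL32 was at -0.01.

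The comparisons share libraries. In the fit without offsets the most common course was no call in MC26 against CT and an increase in M1B26 against both. It was found for 36 members (46.2%) and for 8.96% of all genes. A further 7 members (8.97%, all genes 2.39%) were higher in all 3 comparisons, and 6 (7.69%, all genes 7.54%) were higher in both lines than in CT with no call between the lines. In 2 members (2.56%, all genes 1.43%), MRPL45 and MRPS14, MC26 was lower than CT and M1B26 higher than both. With offsets for length and GC content MRPS14 was at 0.04 in M1B26 against CT and its call was lost (edgeR adjusted p 0.494). MRPL45 kept its call there, at 0.38. No call was made in any comparison for 11 members (14.1%) and for 32.2% of all genes. The courses were not counted with the offsets, under which part of the calls was lost. Of the called members 18 of 19 in MC26 against CT were also called with the offsets. The same held for 45 of 61 in M1B26 against CT and for 25 of 49 between the lines.

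The large and small subunit, split by symbol, were compared next, and in M1B26 they differed by less than the spread between libraries. In M1B26 against CT 38 of 49 large subunit members rose with a median of 0.42, and 22 of 29 small subunit members rose and 1 fell with a median of 0.39. The difference of 0.03 between the medians was smaller than its spread between libraries (SD 0.06). Without CT replicate 2, the shallowest library, it was 0.12. In MC26 against CT 9 large subunit members rose and 3 fell, and 4 small subunit members rose and 3 fell, with medians of 0.09 and 0.04 and a difference as large as its spread (0.04, SD 0.04). In M1B26 against MC26 31 and 18 rose, with medians of 0.29 and 0.32, a difference of -0.03 (SD 0.06). Split by structure instead of symbol, 51 members belong to the large and 26 to the small subunit. Their medians were then 0.09 and 0.06 in MC26 against CT. In M1B26 they were 0.42 and 0.39 against CT, and 0.29 and 0.32 against MC26. The ratio of the summed CPM of large to small subunit was 1.65, 1.65 and 1.66 in CT, 1.73, 1.72 and 1.69 in MC26 and 1.72, 1.71 and 1.68 in M1B26. Both derived lines lay above CT in every library and overlapped each other. The median transcript of the large subunit members was shorter, at 1175 bases against 1458, and its part in the ratio was not tested.

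Of 46 members with a bacterial counterpart 34 rose and 1 fell in M1B26 against CT, with a median of 0.39, and of 31 specific to mitochondria 26 rose, with a median of 0.46. Off chromosome 17 these medians were 0.37 over 42 and 0.38 over 27 members. MRPS36, since assigned to the oxoglutarate dehydrogenase complex, was left out of both.

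The MRPS18 genes encode 3 related proteins of which structures place A in the large subunit and B and C at different sites of the small subunit. MRPS18A had 34.97, 30.8 and 37.2 CPM in CT, 42.1, 40.8 and 40.6 in MC26 and 51.5, 49.8 and 45.6 in M1B26. The groups rose in that order without overlap. Its log2 fold changes were 0.26 in MC26 and 0.51 in M1B26 against CT, and 0.25 between the lines. The last call was lost without 6 libraries in turn and in 2 other settings, and with the offsets the value was 0.01. MRPS18B had 78.8, 74.8 and 76.9 CPM in CT, 72.7, 69.8 and 76.2 in MC26 and 112, 111 and 115 in M1B26. CT and MC26 overlapped, at -0.08 (adjusted p 0.336 by edgeR), and M1B26 was higher than CT by 0.55 and than MC26 by 0.63. MRPS18C had 23.6, 21.7 and 21.7 CPM in CT, 28.9, 27.95 and 23.8 in MC26 and 31.5, 32.35 and 27.3 in M1B26. Both lines lay above CT and overlapped each other, with log2 fold changes of 0.27 in MC26, 0.44 in M1B26 and 0.18 between the lines, the last not past the threshold (adjusted p 0.16 by edgeR) and at -0.06 with the offsets. With the offsets the value in M1B26 against CT was 0.17 and its call was lost (edgeR adjusted p 0.177). The call of MRPS18C in MC26 was lost without 7 libraries in turn and in 4 other settings, and that of MRPS18A without 4 and in 1 other. Genes on the opposite strand overlap 60.6% of the exonic bases of MRPS18A (RSPH9) and 83.6% of those of MRPS18C (ABRAXAS1), and the strandedness of the counting is not given.

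Other lists were read beside the members. In M1B26 against CT 25.2% of all genes were called higher and 23.7% lower. Of the 5 mitoribosomal proteins without an MRP symbol 3 rose in M1B26 against CT, GADD45GIP1 by 0.71, CHCHD1 by 0.47 and DAP3 by 0.26. PTCD3, a pentatricopeptide repeat protein of the small subunit, fell by 0.33 in MC26 and was at 0.05 in M1B26 (adjusted p 0.616 by edgeR). Of 28 assembly factors of the mitoribosome 17 rose and 1 fell in M1B26, with a median of 0.26. The highest were MRM3 at 0.85, a methyltransferase of the large subunit RNA, and C1QBP at 0.83, both on chromosome 17, and YBEY fell by 0.74. The 16 mitochondrial translation factors (2 higher, 3 lower) and 18 mitochondrial aminoacyl-tRNA synthetases (3 higher, 4 lower) had medians of 0.00 and -0.01. The transcripts of these lists are longer than those of the members, with medians of 2746 and 2490 bases, and with the offsets their medians were -0.03 and -0.05. Among the translation factors TACO1, a chromosome 17 gene whose product activates the translation of MT-CO1, rose by 1.01. Of 5 genes of mitochondrial transcription 2 rose, with TEFM, also on chromosome 17, at 1.03. Cytosolic ribosomal proteins rose in 78 of 82 cases and fell in 1, with a median of 0.59, and nuclear OXPHOS subunits in 42 of 75 with a median of 0.27 and 2 that fell. These genes are also short, with median transcripts of 827 and 804 bases. With the offsets 65 cytosolic ribosomal proteins rose and 1 fell, 19 OXPHOS subunits rose and 21 fell, and the medians were 0.34 and 0.05, beside 0.21 for the assembly factors and 0.17 for the 78 members.

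Transcripts of mitochondrial DNA went the other way, with 9 of 15 lower in M1B26 than in CT and a median of -0.44. They were lower in 14 of 15 cases against MC26, with a median of -0.54. In MC26 against CT, however, 11 of 15 values were positive with a median of 0.22, and MT-CYB was called higher (0.31) and MT-RNR2 lower. The large ribosomal RNA of the mitochondrion, MT-RNR2, had 922, 1082 and 970.5 CPM in CT, 715, 882 and 804 in MC26 and 705, 688 and 558 in M1B26. Both lines lay below CT in every library, and its change against CT was -0.31 in MC26 and -0.61 in M1B26 on the log2 scale (adjusted p 0.0391 and 0.000807 by edgeR). The small ribosomal RNA MT-RNR1 was at -0.01 and 0.03 (adjusted p 0.916 and 0.768 by edgeR). Poly-A selection recovers ribosomal RNA only in part, so these levels are no measure of the RNA in the ribosome. Of 9 nuclear regulators of mitochondrial genes 4 fell in M1B26, among them PPARGC1B by 0.54, the ETS factor GABPA by 0.39 and YY1 by 0.22, whereas GABPB1, the partner of GABPA, rose by 0.27. PPARGC1A was also called lower, at 15 to 41 counts in a CT library and 3 to 7 in an M1B26 library.

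In MC26 against CT the lists were mixed. OXPHOS subunits were lower in 12 of 75 cases (16.0%, beside 19.9% of all genes) with a median of -0.07. Aminoacyl-tRNA synthetases were lower in 7 of 18 (38.9%), with IARS2 at -0.45. Assembly factors rose in 5 of 28 cases (17.9%) and fell in 1, beside 18.8% of all genes called higher. Cytosolic ribosomal proteins rose in 4 of 82 (4.88%) and fell in 1. In M1B26 against MC26, 21.2% of all genes were called higher. There 76 of 82 cytosolic ribosomal proteins rose and 2 fell, with a median of 0.48. Of 75 OXPHOS subunits 50 rose with a median of 0.32, and of 28 assembly factors 13 rose and 1 fell, with a median of 0.17. In MC26 against CT the members' median of 0.08 lay between that of the assembly factors at 0.10 and that of the cytosolic ribosomal proteins at 0.06.

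**Figure D5:**
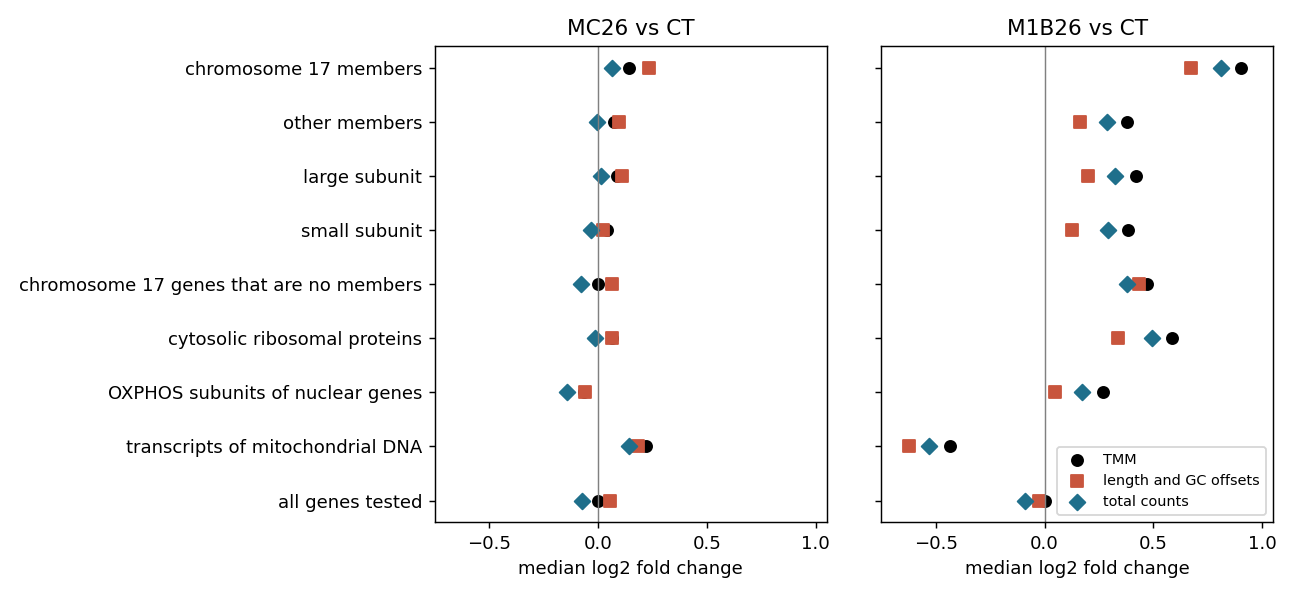
Median log2 fold change of the members by group, of other lists and of all genes (rows) in MC26 and M1B26 against CT, with TMM scaling, total counts, and offsets for length and GC content. In M1B26 the chromosome 17 members lie at 0.67 to 0.90 and the other members at 0.16 to 0.38, and in MC26 the groups of members lie at 0.23 or lower.

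Pseudogenes can take reads from the members. The table held 75 rows for pseudogenes of these genes, of which 15 had any count, and the largest, MRPS31P5, MRPL45P2 and MRPS31P4, had 22 to 207 counts in a library. MRPL45P2 lies on chromosome 17 and had at most 162 counts in a library.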

How the data were processed

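Poly-A libraries of 9 cultures (CT, MC26 and M1B26, 3 each) were sequenced in paired-end mode, and titles gave the groups. Deposited was a table of raw counts, 1 row per gene symbol. The authors aligned reads with STAR 2.7.3a to GRCh38, and Salmon 1.1.0 is also named, but the table holds whole numbers and non-coding genes, so how reads were counted (tool, strand, multiple alignments) is not given in the sources used here.

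The test was the quasi-likelihood test of edgeR 4.0.16 under R 4.3.3 (filterByExpr, minimum count 10, TMM factors 0.969 to 1.07, glmQLFit and glmQLFTest, 2-sided). All 9 libraries entered 1 fit, with line as the covariate and none besides. A call needs an adjusted p under 0.05 (Benjamini-Hochberg over all 15717 genes). The SE is the absolute log2 fold change divided by the square root of F. CPM used TMM-scaled library sizes. Positions, canonical transcript lengths and GC content came from GENCODE 44 on GRCh38, matched by symbol for 36923 symbols and giving a length for 13830 tested genes. The fit was tested on simulated data.

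The members and lists were chosen with earlier results of these data known, so no list was tested and each is described by its counts and its median. Named genes were the chromosome 17 members, the MRPS18 genes, the 4 highest and 4 lowest called members per comparison, the 3 highest and 3 lowest in level per kilobase, and from each other list up to 2 called genes at each end, of which a few are given. The lists were written by hand, except cytosolic ribosomal proteins and OXPHOS subunits, taken by symbol pattern. Alternatives were RLE factors, total counts, DESeq2 1.42.0, no filter, a fit of just the 6 libraries in a comparison, a block for replicate number, offsets for length and GC content (a smooth fit per library with mgcv 1.9.3), both together, and leaving out each library. Scripts ran in Python 3.11.15.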

Additional observations from a re-analysis of the deposited data

Results flagged for a closer look

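Of the 23 members on chromosome 17, of the MRPS18 genes or named for their change against CT, 15 differed between the derived lines. The test was the direct one of M1B26 against MC26, which is the difference between the changes of the lines against CT. In it 49 of all 78 members were called, all of them higher. Of all genes 21.2% were called higher and 18.4% lower. The changes against CT, by which some were named, share libraries with this test. The log2 fold changes between the lines were 1.04 for MRPS23, 0.98 for MRPL38, 0.97 for MRPL58, 0.89 for MRPL12, 0.82 for MRPL45, 0.82 for MRPS7, 0.81 for MRPL10 and 0.64 for MRPL27, the 8 members on chromosome 17. On other chromosomes they were 0.63 for MRPS18B, 0.52 for MRPS14, 0.41 for MRPL33, 0.41 for MRPL14, 0.25 for MRPS18A, 0.19 for MRPS35 and 0.18 for MRPS16. With offsets for length and GC content all 8 on chromosome 17 and, of the other 7, MRPS18B (0.43) and MRPS14 (0.36) were called, whereas MRPL14 (0.15), MRPL33 (0.12), MRPS16 (0.08), MRPS35 (0.01) and MRPS18A (0.01) were not. MRPL45, MRPL33 and MRPS14 had been lower in MC26 than in CT. With 3 libraries a line, no single library was tested for standing apart.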

How the results depend on the processing

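Changes are log2. With offsets for length and GC content, without and with the replicate block, 39 and 40 members were called in MC26 against CT, with medians of 0.23 and 0.23 for the chromosome 17 members and a large minus small subunit difference of 0.0891 and 0.0859. In M1B26 against CT the medians were then 0.17 and 0.17 for all members and 0.67 and 0.67 for chromosome 17, and against MC26 0.0909 and 0.0898 for all members and 0.63 and 0.63 for chromosome 17, with 30 members called under both corrections. Total counts gave medians of 0.0065 for all members in MC26 and, in M1B26, 0.30 for all members and 0.81 for chromosome 17. They shifted the median of all genes by less than 0.1. With MRPL58 added, the chromosome 17 median in M1B26 was 1.01 and its difference from the other members 0.63. The sign turned for MRPL10 in MC26 (-0.0522 with total counts) and, with the offsets without and with the block, for MRPS35 in M1B26 against CT (-0.0136 and -0.0139) and for MRPS18C (-0.0605 and -0.0587) and MRPL32 (-0.0101 and -0.0114) between the lines. The cause was not tested.

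Leaving out single libraries moved the members called in MC26 against CT from 8 to 26 (19 higher and 7 lower, without CT replicate 3), the median of all members from 0.053 to 0.12 in MC26 and from 0.37 to 0.43 in M1B26 against CT, the subunit difference in M1B26 from 0.0213 to 0.12, and MRPL10 in MC26 from -0.0226 to 0.0627. Called members ranged from 51 to 62 in M1B26 against CT and from 35 to 57 against MC26. Replicate numbers did not pair the samples, with correlations of same-numbered libraries of -0.114 to 0.137. The replicate block gave 18 called members in MC26 and 59 in M1B26 against CT, and 48 between the lines. Single values under the alternatives were read for the chromosome 17 members, the MRPS18 genes and those named for their change. Of these values 707 kept their direction and side of the threshold, 110 lost the threshold, 8 gained it and 8 turned. Among all members, 6 of the 19 called in MC26 against CT were called in every setting. So were 38 of 61 in M1B26 against CT and 23 of 49 between the lines. The lowest count of a member in a library was 422, and 3 libraries a line limit the precision.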
